A study of Homo sapiens with 26 samples.

Results

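The 7SL genes encode, or derive from genes that encode, the RNA of the signal recognition particle. All genes in the deposited table whose name begins with RN7SL were taken, which gave 148 of 25745 genes, and they were described singly and as a sum. The mRNAs of the particle's proteins SRP9, SRP14, SRP19, SRP54, SRP68 and SRP72 were set beside them. The libraries came from HEK293T, a human embryonic kidney cell line, stably expressing an APEX2 fusion. APEX2 is a peroxidase that, with biotin-phenol and hydrogen peroxide, tags molecules close to it with biotin, and biotinylated RNA was then bound to streptavidin beads and sequenced. Per the labels, APEX2 sat on the inner face of the plasma membrane in the Lyn11 and Lck lines and on the outer face in the CD28 and PDGFR lines. Labeled libraries numbered 4 for Lyn11 and 3 each for Lck, CD28 and PDGFR, with as many unlabeled controls of the same line. The labels list biotin-phenol, hydrogen peroxide and the quenching mixture of Trolox, ascorbate and azide for controls too, so the sources used here do not say which step controls lacked. Nor do they give the promoter of the fusions, or whether a line was 1 clone or a pool.

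7SL RNA is a noncoding RNA made by RNA polymerase III. Its ends fold into the Alu domain, which binds the SRP9 and SRP14 heterodimer and slows translation, and its middle forms the S domain, which holds SRP19, SRP54, SRP68 and SRP72. The particle meets ribosomes that make secreted or membrane proteins and brings them to a receptor on the endoplasmic reticulum, where the chain enters the Sec61 channel. The human genome holds a few functional 7SL genes and many truncated or diverged copies, and Alu repeats descend from the same RNA. The design compares streptavidin-bound RNA of labeled and control cells, with APEX2 on the inner or the outer face of the plasma membrane.

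GENCODE 29 lists 680 RN7SL genes on hg38, of which 148 had values. RN7SL1, the other gene usually counted as functional, was not among the 148 with values. Its transcript differs from that of RN7SL2 at 4 bases and 1 gap. Of the 148, 147 were annotated as miscellaneous RNA and 1, RN7SL832P, as a long intergenic RNA of 1756 bases. The median length was 297 bases, and the genes lay on 22 chromosomes. RN7SL2 lies on the minus strand of chromosome 14, inside an intron of the long noncoding gene AL627171.2. RN7SL3 lies on the same strand and chromosome, 413 bases from NEMF, and overlaps no other gene. RN7SL4P is on the plus strand of chromosome 3, opposite an intron of ANKRD28, and RN7SL5P on the plus strand of chromosome 9, opposite an intron of PTPRD. In alignments of the GENCODE 29 transcripts RN7SL3 differed from RN7SL2 at 11 bases and lacked 1. RN7SL4P had 26 mismatched bases, lacked 10 and had 5 inserted, and RN7SL5P had 27 mismatched, lacked 1 and had 22 inserted. The longest run shared with RN7SL2 spanned 123 bases in RN7SL3, 192 in RN7SL4P and 166 in RN7SL5P. Among the other 144 genes the longest shared run was 75 bases, in RN7SL128P, and the median was 23. They matched 59.3% to 87.7% of RN7SL2's bases. The sources used here do not say how the authors' counting placed reads that fit several copies. Values of RN7SL2, RN7SL3, RN7SL4P and RN7SL5P are therefore uncertain singly, and the sum is less exposed to how such reads were split. A read from RN7SL1 could also have been placed on any of them.

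Reads recovered from the values came to 19.99 to 35.57 M per library for Lyn11 and Lck and to 11.6 to 16.62 M for CD28 and PDGFR, so depth and side cannot be told apart. A pair of libraries stood apart, CD28 labeled replicate 2 with 3148 of all genes at 0 reads and PDGFR control replicate 2 with 3024. In the same libraries 45 and 49 of the 148 7SL genes were at 0, against 0 to 8 in the inside libraries and 2 to 24 in the other outside libraries. The 3 labeled CD28 libraries had 15.27 to 15.45 M reads and 4, 45 and 12 of the 148 at 0. Of 6 markers associated with HEK293T cells 5 were measured and summed to 60.3 to 123 FPKM, with LIN28B and VIM detected in every library. Markers of blood (3 of 6 measured) summed to 2.69 to 6.52 FPKM. Those of fibroblasts (3 of 5) summed to 4.40 to 9.81 and those of epithelial carcinoma (3 of 5) to 0.736 to 2.85. Of the measured markers 5 of HEK293T, 2 of blood, 1 of fibroblasts and 1 of carcinoma passed the filter given below and were tested. None of those was called in any comparison, and the other measured markers could not be called. The ranges in labeled and control libraries overlapped for all 4 lists in every construct, except for carcinoma markers in Lck, at 2.40 to 2.65 FPKM labeled and 1.91 to 2.39 control. Among single markers HBA1, a hemoglobin gene, lay higher without overlap in both inner constructs, with 13 to 30 reads labeled and 2 to 10 control in Lyn11 and 13 to 38 against 1 to 7 in Lck. Its differences were 1.87 ± 0.70 (limma adjusted p = 0.519) and 2.34 ± 0.81 (limma adjusted p = 0.317). The part of these markers in the 7SL values was not tested.

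RN7SL2 had the highest mean level of all 25745 genes, 13.92 log2 FPKM (a read count divided by library size and by exon length), and RN7SL3 ranked 3 at 10.83. In Lyn11 libraries RN7SL2 stood at 12.83, 13.15, 12.88 and 13.38 log2 FPKM when labeled and at 13.72, 13.31, 13.25 and 13.06 as controls. Lck libraries gave 14.12, 13.89 and 13.70 when labeled and 14.42, 14.57 and 14.13 as controls, so every Lck control lay above every labeled library. In Lck 13.2% of all genes tested lay lower without overlap when labeled. CD28 libraries gave 13.88, 13.82 and 14.48 against 13.87, 14.38 and 13.91, and the groups overlapped. PDGFR libraries gave 14.51, 14.48 and 14.50 against 14.66, 14.07 and 14.82, where the labeled values fell inside the range of the controls. Among controls the group means were ordered Lyn11 (13.33 ± 0.28, SD, n = 4), CD28 (14.05 ± 0.28, n = 3), Lck (14.37 ± 0.22, n = 3) and PDGFR (14.52 ± 0.39, n = 3). The Lyn11 controls lay below all other controls, and the neighbours CD28, Lck and PDGFR overlapped. Constructs were separate lines, so construct and library preparation cannot be told apart.

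RN7SL3 followed a like pattern at a lower level. Its Lyn11 values were 9.47, 10.44, 10.34 and 10.72 log2 FPKM when labeled and 11.17, 10.36, 10.31 and 9.68 as controls, and the spread within each group exceeded the gap between them. In Lck it stood at 10.85, 10.55 and 10.40 when labeled and 10.95, 11.21 and 10.89 as controls, again without overlap. That was so for 13.2% of all genes tested in Lck. CD28 values were 10.79, 11.11 and 11.55 against 10.95, 11.45 and 10.74, and PDGFR values 11.05, 11.33 and 11.29 against 11.42, 10.98 and 11.53. Both of these pairs of groups overlapped.

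RN7SL4P ranked 105 with a mean of 7.41 log2 FPKM and RN7SL5P ranked 128 with 7.24, although both carry pseudogene names. RN7SL4P group means were 6.40 ± 0.67 (SD, n = 4) in labeled and 6.30 ± 0.67 in control Lyn11 libraries, and 7.13 ± 0.50 and 7.94 ± 0.39 (n = 3) in Lck. In PDGFR its labeled libraries, at 7.62, 7.95 and 7.65 log2 FPKM, stayed just under the controls, at 7.95, 8.05 and 8.15. Of all genes tested 6.39% lay lower without overlap in PDGFR. RN7SL5P ranged most widely of the 4, from 5.26 in Lyn11 control replicate 3 to 9.12 in CD28 control replicate 2. Its labeled mean was under its control mean in 4 of 4 constructs, with overlap in each. ANKRD28 and PTPRD, the genes on the opposite strand, averaged 3.08 and 1.91 log2 FPKM, far below the copies in their introns.

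**Figure D1:**
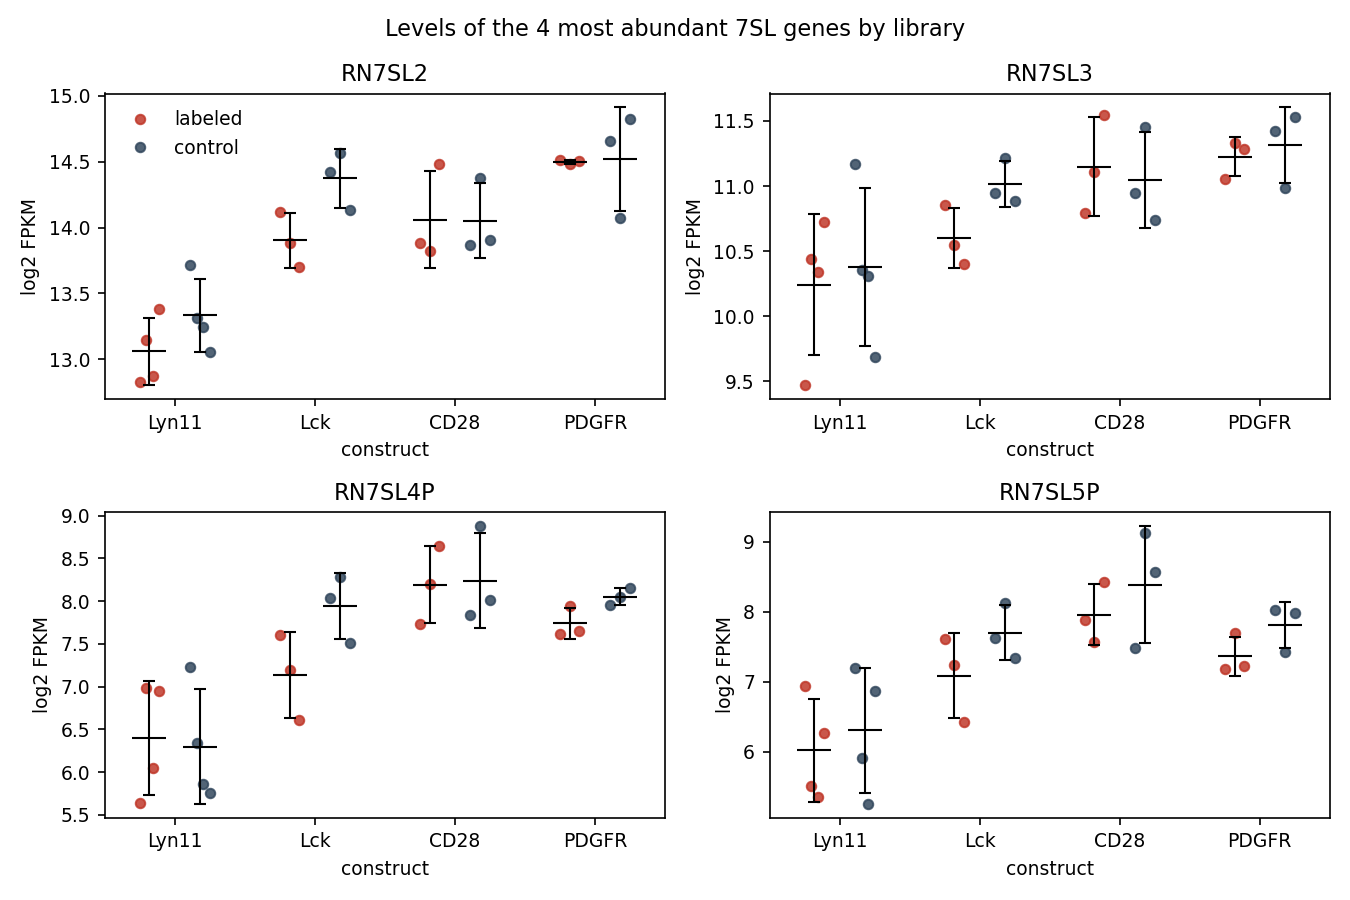
Levels of RN7SL2, RN7SL3, RN7SL4P and RN7SL5P in log2 FPKM (vertical axes, which do not start at 0) by construct, with 1 point per library, labeled in red and control in dark blue, and bars giving the group mean ± SD. Lyn11 group means are lowest in each panel, and in Lck the labeled RN7SL2 and RN7SL3 values lie below all 3 controls. In Lck 13.2% of all genes tested lay lower in this way.

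Labeling moved none of these 4 genes past the threshold. Here and below a difference is labeled minus control in log2 units from limma, fitted to the 22284 genes that exceeded log2 0 in 3 or more libraries, and a call is a Benjamini-Hochberg adjusted p under 0.05. RN7SL2 differed by -0.27 ± 0.55 (SE) in Lyn11, -0.47 ± 0.63 in Lck, 0.01 ± 0.63 in CD28 and -0.02 ± 0.63 in PDGFR. The average of the 4 differences was -0.19 ± 0.31, with a 95% interval of -0.82 to 0.45 and a limma adjusted p of 0.82. These SEs draw on limma's intensity trend, which pools spread over genes of like level. For RN7SL2 the SE in each construct exceeded the SD of every control group given above. Its intervals are therefore wider than its own libraries alone would give. The average was -0.13 ± 0.17 for RN7SL3 (interval -0.49 to 0.22, limma adjusted p = 0.759). For RN7SL4P it was -0.27 ± 0.19 (interval -0.66 to 0.13, limma adjusted p = 0.505). For RN7SL5P it was -0.44 ± 0.23 (interval -0.93 to 0.04, limma adjusted p = 0.323). Without limma's intensity trend, an alternative added after seeing the data, the adjusted p of the RN7SL2 average was 0.386. An exact permutation of libraries within constructs, two-sided and added after seeing the data, gave p = 0.101 for the RN7SL2 average and p = 0.0566 for RN7SL5P, each 0.202 after adjustment over the 4 genes. With 3 against 3 libraries that test cannot go below 0.1, which was its value for RN7SL2 and RN7SL3 in Lck and for RN7SL4P in PDGFR.

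RN7SL2 had more reads than RN7SL3, and RN7SL3 more than RN7SL4P and RN7SL5P, in every library, but the order of the last pair varied. Per 1000 reads of RN7SL2, Lyn11 labeled replicate 1 had 6.70 of RN7SL4P and 18.1 of RN7SL5P, and Lyn11 labeled replicate 2 had 13.6 and 5.36. RN7SL3 had 89.6 to 172 reads for every 1000 of RN7SL2, RN7SL4P 5.87 to 21.7 and RN7SL5P 4.20 to 28.0. The RN7SL3 ratio averaged 101 ± 2.36 (SD, n = 3) in labeled and 97.4 ± 7.84 in control Lck libraries, and 145 ± 32.9 and 131 ± 30.4 (n = 4) in Lyn11. RN7SL4P was highest against RN7SL2 in CD28, at 17.0 ± 3.03 labeled and 17.7 ± 3.54 control, where the other 6 groups had means of 7.72 to 11.4. None of the 12 labeled and control pairs of ratios was free of overlap. RN7SL5P reads per 1000 of RN7SL2 in Lyn11 labeled replicate 1 were 18.1, against 5.36 to 7.70 in the other 3 labeled libraries of that construct.

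Summed over the 148 genes, which do not include RN7SL1, 7SL reads made up 0.226% to 1.08% of all reads. RN7SL2 gave 81.3% to 88.8% of that sum and RN7SL3 7.95% to 14.0%, and the 144 genes after the first 4 gave 1.37% to 3.82%. The sum in Lyn11 libraries was 2264, 3488, 2630.0 and 4097 RPM (reads scaled to library totals) when labeled and 4348, 3511, 3286 and 3009 as controls. In Lck it was 6521, 5659 and 4793 against 7630.2, 8628 and 6462. Labeled Lck values were mostly lower, but labeled replicate 1 exceeded control replicate 3 by a little. CD28 gave 4977, 4823 and 7751 against 5415, 8240 and 5605, and PDGFR 8729, 8049 and 8706 against 9434, 6968 and 10820 RPM. Group means were 3119.8 ± 829.2 (SD) labeled and 3539 ± 578 control in Lyn11, and 5658 ± 864 and 7573 ± 1084.5 in Lck. They were 5850.1 ± 1648 and 6419.8 ± 1579 in CD28, and 8495 ± 386 and 9074 ± 1951 in PDGFR. On the log2 scale the labeled mean of RPM was lower by 0.21, 0.42, 0.14 and 0.07 in that order. The difference was under the SD within groups in Lyn11 (0.32), CD28 (0.36) and PDGFR (0.23) and above it in Lck (0.22). As summed FPKM, or with scaled library sizes, the Lck groups did not overlap. The CD28 difference was then 0.005 and 0.004, so its direction depended on the scaling. In PDGFR it was -0.03 with either. No p is given for the sum, since its members were chosen with results of these data known.

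Without RN7SL2, RN7SL3, RN7SL4P and RN7SL5P the sum behaved otherwise. It came to 113 ± 32.0 RPM labeled and 98.1 ± 5.30 control in Lyn11, 131 ± 7.56 and 119 ± 12.4 in Lck, and 152 ± 22.9 and 159 ± 9.27 in PDGFR, all with overlap. In CD28 the labeled libraries, at 117, 88.6 and 121 RPM, lay below the controls, at 148, 152 and 147. The lowest of these was CD28 labeled replicate 2, but the other labeled values were below every control as well. Which construct stood apart depended on the genes summed. With only RN7SL2 and RN7SL3 left out, labeled PDGFR libraries lay below controls, at 269 to 288 against 314 to 348 RPM. The other constructs, CD28 among them, overlapped in that sum. Over the copies that overlap no other gene, RN7SL3 among them, only Lck was apart, labeled 429 to 594 and control 596 to 741 RPM. The part that genes at 0 reads play in these sums was not tested.

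**Figure D2:**
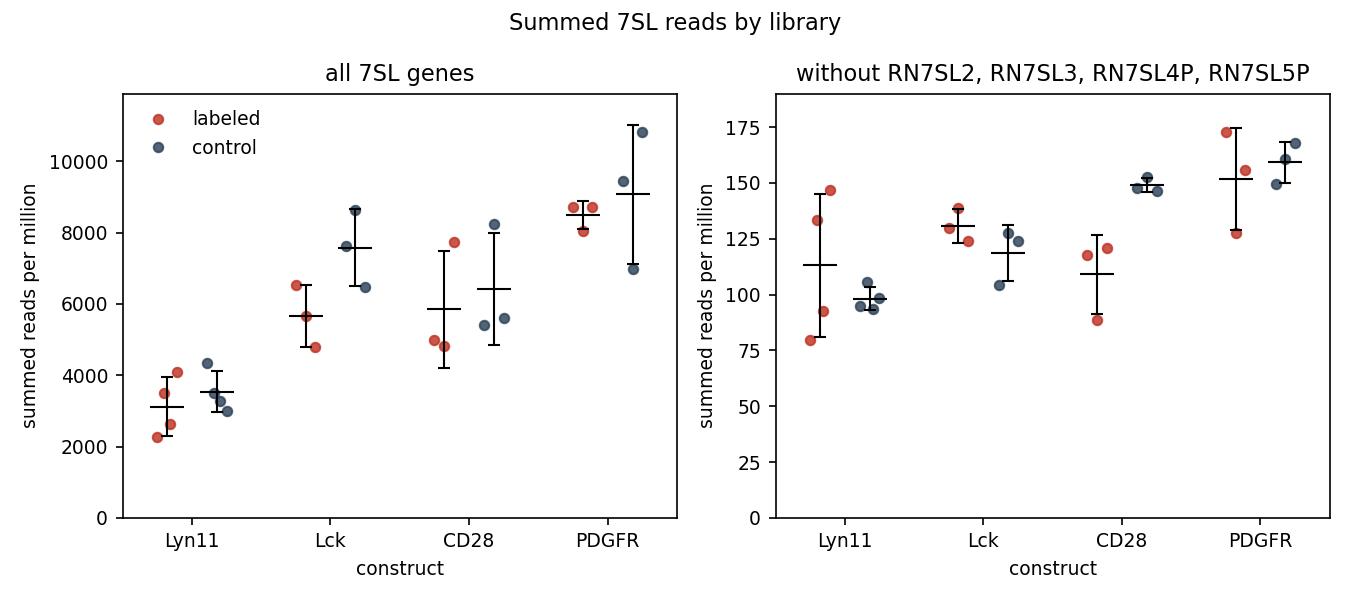
Summed 7SL reads as RPM (vertical axes, from 0) by construct, with 1 point per library and bars for the group mean ± SD, over all 148 genes (left) and without the 4 most abundant (right). The full sum ran from 2264 to 10820 RPM with overlap in every construct, and without the 4 genes only CD28 labeled and control libraries were apart.

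Most of the 144 remaining copies had few reads. Over the 144 the mean level reached 3.97 log2 FPKM at most, and 107 of the 148 genes averaged under 20 reads per library. Over all 148 the median was 13.0 reads and 100 genes had 0 reads in at least 1 library. RN7SL648P, in an intron of FTX on chromosome X (74242608 to 74242908), led them at 3.97 log2 FPKM and 37 to 154 reads. RN7SL535P, RN7SL751P, RN7SL809P, RN7SL481P and RN7SL381P followed at 2.84 to 3.34. RN7SL535P and RN7SL481P lie in introns of CASP2, a caspase gene, and RN7SL751P lies in one of ROBO1, a guidance receptor gene. Level was not ordered by likeness to RN7SL2 within the 144, with a Spearman coefficient of 0.03 for the percentage of matched bases and -0.01 for the longest shared run, across genes that share libraries.

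Most copies sat inside other genes. Of the 148, 140 overlapped another gene, 133 of them a protein-coding gene. In 99 the other gene was on the same strand, with 97 of these copies in introns, and in 41 it was on the opposite strand only. The sources used here do not state strandedness, so reads of a copy and of the gene around it cannot be told apart on either strand. Level of copy and of host had a Spearman coefficient of 0.44 over 95 pairs on the same strand and 0.09 over 42 pairs on opposite strands. Copies were below the host in 90 of the 95 pairs and in 38 of the 42. Average labeling differences of copy and host had coefficients of 0.22 over 93 pairs and 0.04 over 42. These describe genes measured in the same libraries.

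In the inner-face constructs 0 of 148 7SL genes were called. For Lyn11, where limma called 0.579% of all genes (0.53% higher and 0.0494% lower), 4 members had an unadjusted p under 0.05, and for Lck, where it called 0.794% (0.758% higher and 0.0359% lower), 7 had. limma with voom weights on recovered reads called 0 and 1. The median difference over the members was 0.11 in Lyn11 and 0.05 in Lck, beside -0.03 and -0.04 over all genes. Labeled libraries lay above all controls for 6 members in Lyn11 (3.4% of all genes did so) and for 19 in Lck (12.9%). They lay below for 5 (1.91%) and 11 (13.2%). The largest Lck difference was in RN7SL338P, a copy on chromosome 9 at 35049271 to 35049563 that overlaps no gene and lies 3280 bases from C9orf131. It had 69, 110 and 89 reads in labeled Lck libraries and 8, 18 and 10 in controls, and in Lyn11 31, 38, 45 and 29 against 28, 13, 13 and 11. In both inner constructs every labeled library was above every control. The differences were 2.76 ± 0.76 in Lck (limma adjusted p = 0.113) and 1.24 ± 0.66 in Lyn11 (limma adjusted p = 1.00). In Lck RN7SL338P was called with libraries weighted by construct, with voom, after quantile normalization, with Lck libraries alone and without both libraries that stood apart. Weighting by construct brought the Lck count of called members to 8, and Lck libraries alone to 7. Over all genes tested these settings called 1831 and 984 in Lck, against 177 in the main fit. Calls thus rose over all genes as well. Leaving out PDGFR control replicate 1 or 2 brought the Lck member count from 0 to 1. In Lyn11 the count was 1, RN7SL338P, without both libraries that stood apart and 2 with Lyn11 libraries alone.

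Among CD28 libraries 1 member was called, RN7SL502P, lower when labeled, where 0.476% of all genes were called (0.175% higher and 0.301% lower). This copy, on chromosome 6 at 36450912 to 36451201, lies opposite an intron of KCTD20. It had 1, 0 and 2 reads in labeled libraries and 7, 10 and 12 in controls, a difference of -2.90 ± 0.63 (limma adjusted p = 0.0365). Counted over the groups, 3 reads against 29, controls were 10.8-fold higher per scaled read, with a 95% interval of 3.35 to 55.4 that covers counting error only. The call was lost with construct weights, voom, quantile normalization and CD28 libraries alone. It was also lost without both libraries that stood apart, where RN7SL306P was called in its place (adjusted p of RN7SL502P = 0.155 by limma). The alternatives gave adjusted p from 0.0297 to 0.572. The count fell to 0 without Lyn11 control replicate 3, Lck labeled replicate 1, Lck control replicate 3, or CD28 control replicate 1 or 3. It rose to 7 without CD28 labeled replicate 1 and to 3 without CD28 labeled replicate 3. Over all genes tested the calls in CD28 rose too, from 106 to 464 and 206 in that order. The member count came to 2 without Lyn11 labeled replicate 1 or 4, PDGFR labeled replicate 3, or PDGFR control replicate 2 or 3. The members' median difference in CD28 was -0.39, beside 0.03 over all genes, and 26 had an unadjusted p under 0.05. Without CD28 labeled replicate 2, in which 45 members were at 0 reads, the median was -0.09. Labeled libraries lay below all controls for 19 members (6.59% of all genes) and above for 8 (7.44%).

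PDGFR libraries gave 7 called members of 148, 5 higher and 2 lower when labeled, where 2.13% of all genes were called (1.37% higher and 0.758% lower). RN7SL306P, on chromosome 7 at 128970734 to 128971029 and opposite an intron of TNPO3, had 16, 22 and 24 reads in labeled libraries and 0 in each control. That made it at least 21.6-fold higher when labeled, against a floor of 3 reads over the 3 controls. Its fitted difference was 4.81 ± 0.54 (limma adjusted p = 4.35e-05), and it was called in all 38 alternatives. TNPO3 itself differed by 0.03. RN7SL502P had 8, 5 and 19 reads when labeled and 0 in each control, at least 11.2-fold higher (3.73 ± 0.63, limma adjusted p = 0.00246). Labeled RN7SL127P, in an intron of BMP2K, had 14, 16 and 10 reads against 0, 0 and 2. Labeled RN7SL378P, in an intron of ATG10, had 10, 15 and 19 against 5, 2 and 4. RN7SL862P, named here after its values were seen, had 19, 5 and 3 against 0, 0 and 1 and lies opposite an intron of RAB31.

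The 2 lower members were RN7SL11P, in an intron of ANKRD6, with 2, 0 and 0 reads against 11, 9 and 13, and RN7SL19P, in an intron of LACTB2, with 8, 0 and 0 against 7, 27 and 13. RN7SL19P overlapped between groups, and it was called in 10 of 37 alternatives. RN7SL862P was called in 12 of 38. Construct weights, voom and PDGFR libraries alone each called 1 member, RN7SL306P, and quantile normalization called 2. Without both libraries that stood apart 7 were called again, but they shared 3 with the first 7, namely RN7SL306P, RN7SL502P and RN7SL11P. The count fell to 2 without PDGFR labeled replicate 2 and to 4 without PDGFR labeled replicate 3, and rose to 11 without PDGFR control replicate 3. Over all genes tested, fits without 1 library called 334 to 727 in PDGFR, against 475 with all libraries. The members' median was 0.00 with all libraries, beside 0.03 over all genes, and -0.25 without PDGFR control replicate 2. Labeled libraries lay above all controls for 9 members (7.53% of all genes) and below for 17 (6.39%).

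Averaged over the 4 constructs, 10 of 148 members were called, 5 in each direction, where 7.37% of all genes were called (4.29% higher and 3.08% lower), and the members' share was 6.76%. Their median was -0.05, beside -0.01 over all genes. RN7SL809P, in an intron of PTGES3, the gene of a co-chaperone with prostaglandin E synthase activity, had the smallest adjusted p. It fell by 0.88 ± 0.18 (limma adjusted p = 0.00338), was lower in 4 of 4 constructs and was called in all 37 alternatives. Its reads were 59, 49, 26 and 21 against 121, 60, 76 and 48 in Lyn11, and 50, 54 and 55 against 63, 105 and 57 in Lck. They were 32, 39 and 17 against 45, 74 and 44 in CD28, and 45, 22 and 28 against 56, 67 and 76 in PDGFR. Labeled reads were below all controls in Lck, CD28 and PDGFR. PTGES3 averaged 6.84 log2 FPKM and differed by -0.05 (limma adjusted p = 0.885).

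RN7SL566P, on chromosome 19 at 39369153 to 39369448 in an intron of SAMD4B, was also called in all 37 alternatives. It fell by 1.19 ± 0.25 (limma adjusted p = 0.00434), and SAMD4B differed by -0.03. Its reads were 20, 31, 15 and 33 against 41, 29, 25 and 22 in Lyn11, where the groups overlapped. In Lck they were 8, 21 and 12 against 37, 30 and 31, in CD28 5, 1 and 17 against 20, 34 and 20, and in PDGFR 23, 22 and 12 against 47, 29 and 38. Labeled reads were under all controls in these 3 constructs. Also lower were RN7SL845P by 1.55, RN7SL19P by 1.45 and RN7SL34P by 1.18, with limma adjusted p of 0.0281, 0.02 and 0.0431. RN7SL845P, which overlaps no gene, had 0 reads in every labeled CD28 and PDGFR library. Its controls had 3, 12 and 6 reads in CD28 and 0, 0 and 13 in PDGFR.

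RN7SL30P, in an intron of MAPKAP1, was the third copy called in all 37 alternatives and the largest rise, at 1.59 ± 0.42 (limma adjusted p = 0.0203). Its labeled reads ran from 8 to 34 and its control reads from 0 to 12, with overlap. RN7SL338P rose by 1.37 ± 0.37, RN7SL182P by 1.38 ± 0.42, RN7SL378P by 0.78 ± 0.21 and RN7SL128P by 0.54 ± 0.16, with limma adjusted p of 0.0237, 0.0488, 0.0247 and 0.0368. RN7SL338P was the exception in direction, with a CD28 difference of -0.32 ± 0.76, and the other 4 were higher in 4 of 4 constructs. RN7SL128P, which shares the 75-base run with RN7SL2, lies opposite an intron of E2F3, and E2F3 was called too, at 0.20 (limma adjusted p = 0.0169). Of the fits that left out 1 of the 26 libraries, RN7SL182P was called in 7, and RN7SL128P and RN7SL34P in 9. The member count was 6 without Lck labeled replicate 2 or Lck control replicate 2 and 16 without PDGFR control replicate 3. Over all genes tested, fits without 1 library called 1293 to 1781 on average, against 1642 with all libraries.

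**Figure D3:**
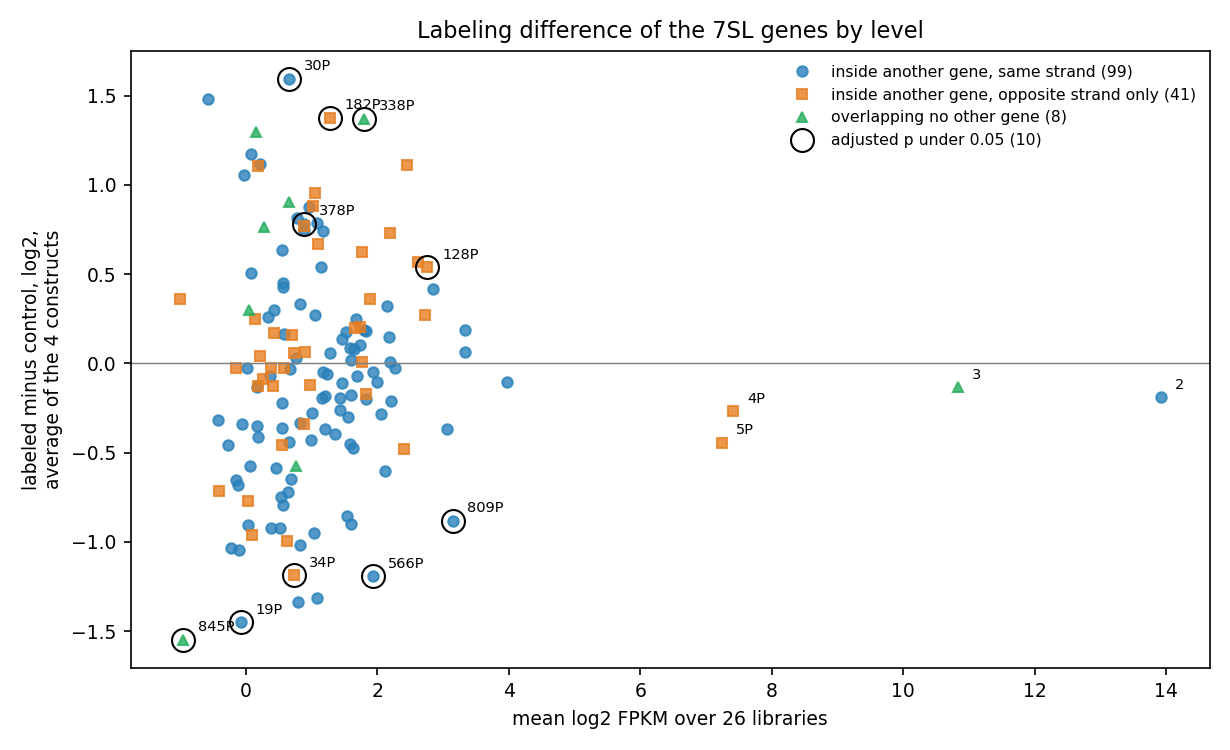
Average labeling difference over the 4 constructs (log2, vertical axis) against mean level over 26 libraries (log2 FPKM, horizontal axis) for the 148 7SL genes, by position relative to other genes, with called genes ringed and labelled by the end of their name. The 4 abundant genes lie slightly below 0, and the 10 called copies have mean levels from -0.95 to 3.15.

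The sides of the membrane did not differ in any member by limma's test of the difference between the inside and outside constructs' labeling differences. Of all genes 0.00449% were called, 0 of 148 members were, and 13 members had an unadjusted p under 0.05, with voom calling 0. RN7SL2 differed between sides by -0.37, with a 95% interval of -1.64 to 0.90, and RN7SL3 by -0.28 (interval -0.999 to 0.43). The RN7SL2 interval again rests on the pooled spread, which is wider than that of its own libraries. The members' median was 0.24, beside -0.04 over all genes. It was 0.05 without CD28 labeled replicate 2, with its 45 members at 0 reads.

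Within the outer face the constructs differed in 2 copies. In a comparison of the CD28 and PDGFR labeling differences, added after seeing the data, limma called 0.0494% of genes, which was 11 genes (0.00449% higher and 0.0449% lower in CD28), and 2 of these were RN7SL502P and RN7SL306P. RN7SL502P differed by -6.63 ± 0.89 (limma adjusted p = 0.00134) and RN7SL306P by -6.09 ± 0.77 (limma adjusted p = 0.000835), the CD28 difference being the lower. RN7SL306P had 4, 17 and 1 reads when labeled and 15, 7 and 12 as control in CD28, set against 16, 22 and 24 and 3 controls at 0 in PDGFR. The PDGFR controls were the libraries apart from the rest, since all 23 others had at least 1 read of RN7SL306P. voom called 0 genes in that comparison, and construct weights called 3 genes with 1 member among them. Between Lyn11 and Lck 0% of genes were called, and 2 members had an unadjusted p under 0.05.

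**Figure D4:**
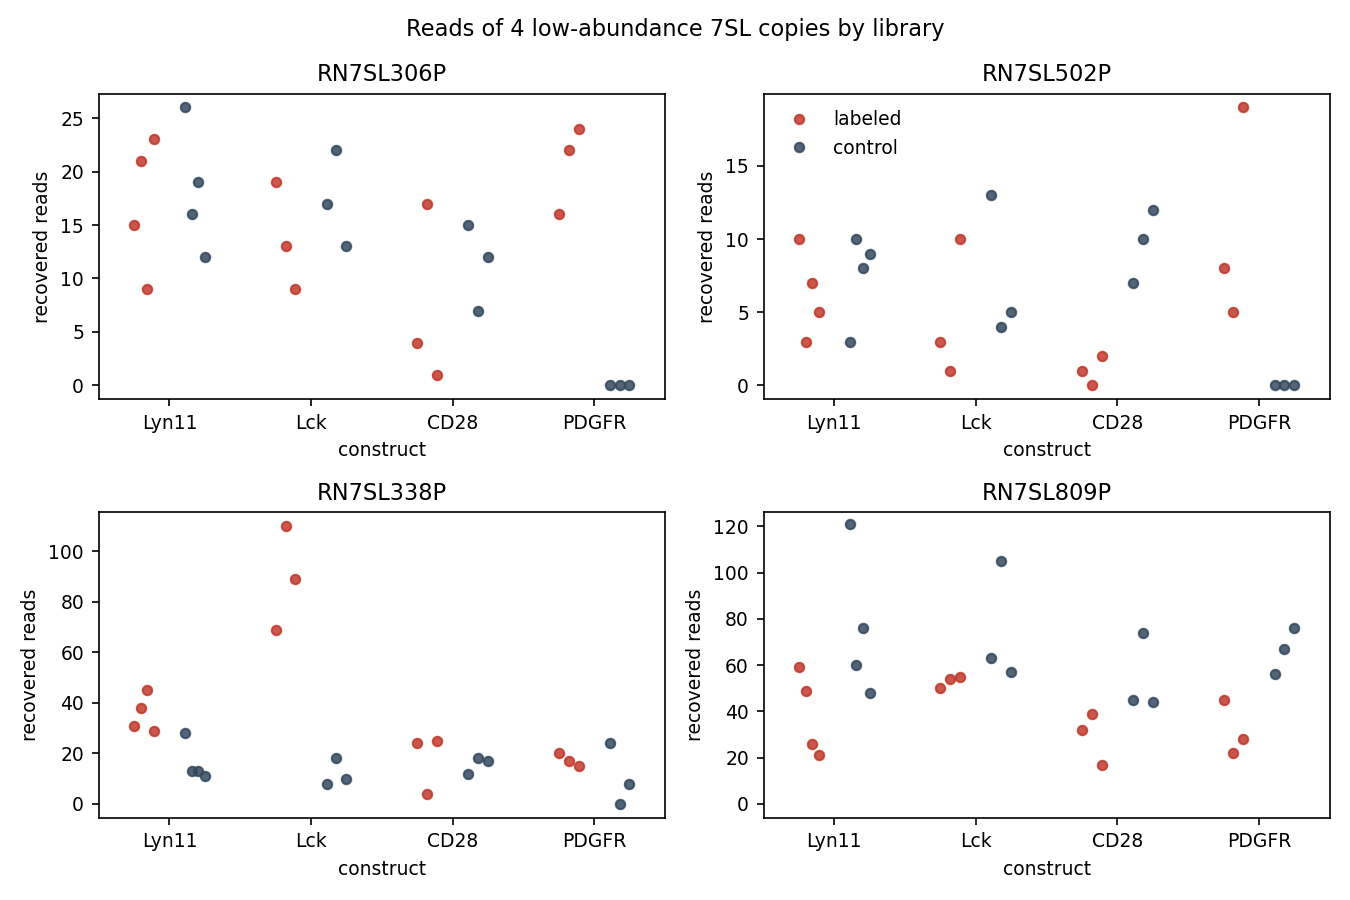
Recovered reads (vertical axes) of RN7SL306P, RN7SL502P, RN7SL338P and RN7SL809P by construct, with 1 point per library, labeled in red and control in dark blue. RN7SL306P and RN7SL502P have 0 reads in all 3 PDGFR controls, RN7SL338P reaches 69 to 110 reads in labeled Lck libraries, and RN7SL809P is lower in labeled than in control libraries of Lck, CD28 and PDGFR.

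The mRNAs of the particle's proteins did not move with labeling past the threshold. In Lyn11, Lck, CD28, PDGFR, the average and inside minus outside, limma called 0 of the 6. Of all genes tested it called 0.579%, 0.794%, 0.476%, 2.13%, 7.37% and 0.00449% in that order, so a list of 6 would hold few calls or none. SRP68 had an unadjusted p under 0.05 in PDGFR and in inside minus outside, the others in none, and voom called 0. Of the Alu-domain pair, SRP9 averaged 7.15 log2 FPKM and SRP14 4.03. SRP9 differed by -0.01 ± 0.15 on average (95% interval -0.31 to 0.29) and SRP14 by -0.09 ± 0.23 (-0.57 to 0.38). SRP14 varied most among Lyn11 labeled libraries, at 5.32, 3.20, 4.61 and 2.93 log2 FPKM, with the controls at 4.19 to 4.61. The S-domain mRNAs differed by -0.02 ± 0.12 (SRP19), 0.02 ± 0.10 (SRP54, the GTPase that holds the signal peptide), 0.12 ± 0.08 (SRP68) and -0.05 ± 0.10 (SRP72). The signs of SRP9 and SRP19 turned under median centring and that of SRP54 under quantile normalization, so no direction is given for them. SRP68 in CD28 was at 4.28, 4.08 and 4.05 log2 FPKM labeled and 4.03, 3.81 and 3.93 control, without overlap (0.21 ± 0.17, limma adjusted p = 0.619). SRP19 in PDGFR was at 2.102, 1.92 and 2.01 labeled and 2.26, 2.71 and 2.44 control, also without overlap (-0.46 ± 0.24, limma adjusted p = 0.412). Without PDGFR control replicate 1 limma called 1 of the 6 in PDGFR.

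**Figure D5:**
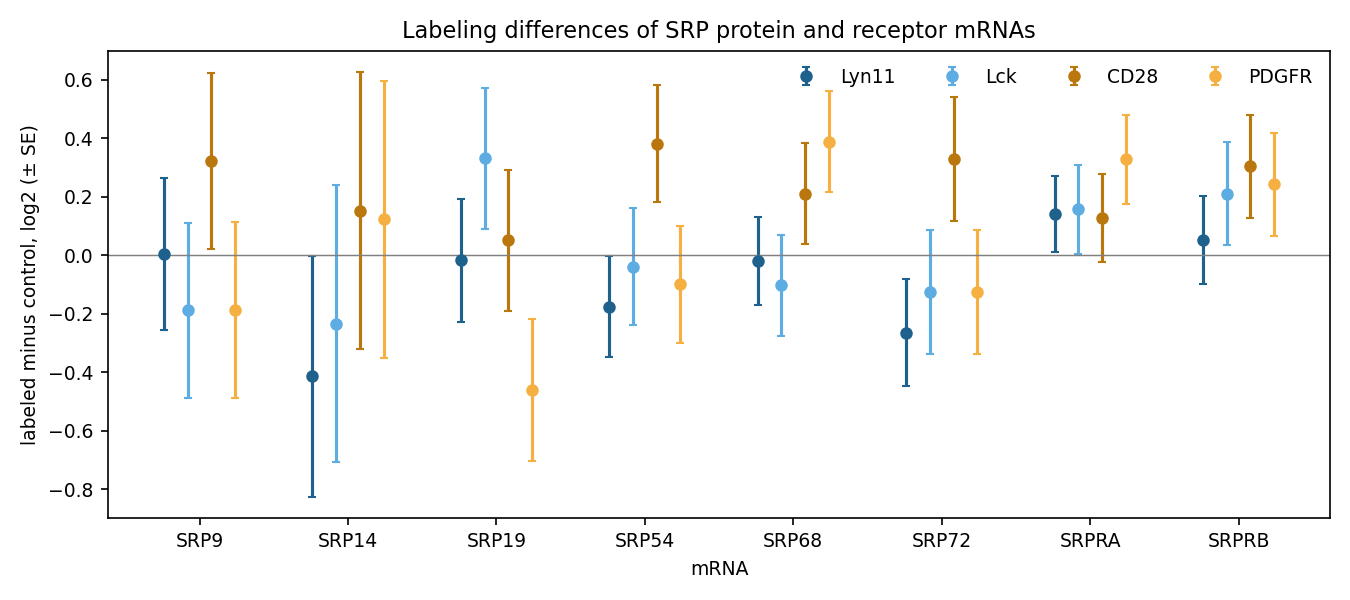
Labeled minus control differences (log2, vertical axis) of the 6 SRP protein mRNAs and the 2 receptor mRNAs, with 1 point per construct and bars for ± SE. Differences lie between -0.46 and 0.39, and none of the points passed the threshold.

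Genes on either side of the particle in its pathway, and some of RNA binding and export, were counted beside the same shares of all genes. At those shares, 0.00449% to 7.37%, lists this short would hold few calls or none. The receptor subunits SRPRA and SRPRB differed by 0.19 ± 0.07 and 0.20 ± 0.08 on average (limma adjusted p of 0.138 and 0.177), positive in 4 of 4 constructs. Of the 11 translocon genes (Sec61 channel, SEC62, SEC63, TRAM1 and the SSR subunits) 0 were called in each construct, the average or inside minus outside. Their average differences ran from -0.06 to 0.26 with a median of 0.10, and 3 had an unadjusted p under 0.05 on average and 3 in CD28. The 6 listed genes of RNA binding, export and the nucleolus (SSB, LARP7, XPO1, XPO5, NOP58 and NCL) gave 0 as well, and 0 at an unadjusted p under 0.05. Of 25 measured genes of RNA polymerase III transcription 1 was called, SNAPC5, a subunit of the complex that binds small nuclear RNA promoters. It was higher in PDGFR by 0.98 ± 0.17 (limma adjusted p = 0.00388) and on average by 0.66 ± 0.08 (limma adjusted p = 1.93e-05), and positive in 4 of 4 constructs. Of 12 listed RNAs made by the same polymerase BCYRN1, a neuronal Alu-derived RNA, was in the table. It had 0 to 23 reads a library and differed by 0.23 ± 0.42 on average (limma adjusted p = 0.841).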

How the data were processed

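RNA bound to streptavidin after APEX2 labeling was sequenced in 26 libraries. The authors deposited log2 FPKM values for 25745 genes. Per the submitters' processing notes HISAT2 2.1.0, edgeR and hg38 were used. The sources used here do not say how strand and reads that fit several places were handled. Values below the detection of 1 read are set by a prior count of about 1.00 read, so fold changes of low genes are understated. Whole reads were recovered from the deposited log2 values for 25673 genes (tolerance 0.05 of a read, at least 99.9% of values whole) and used for sums, ratios and voom. Gene identifiers were matched to GENCODE 29, 24075 with version and 1579 without, and 91 were unmatched.

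Group means of log2 FPKM were fitted with limma 3.58.1 in R 4.3.3 (intensity trend, 18 residual degrees of freedom, 20.87 after moderation) over 22284 genes above log2 0 in at least 3 libraries. Labeled minus control was taken per construct, as their average and as inside minus outside. Benjamini-Hochberg adjustment ran over all genes tested. Transcripts were aligned with Biopython 1.88, their sequences are not reported here, and permutations used scipy 1.17.1. The fit was tested on simulated data. Intervals on reads cover counting error only. Replicates are called biological in the series text.

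The members and lists were chosen with earlier results of these data known. Named were RN7SL2, RN7SL3, the 6 SRP mRNAs, the 10 members of highest mean level, members called in the average or in at least 2 constructs, and the 3 largest and 3 smallest called differences in each construct. Pathway genes came from the lists. Alternatives changed the filter, scaling, prior count, weights, test, replicate block and libraries included.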

Additional observations from a re-analysis of the deposited data

Results flagged for a closer look

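Among 68 groups of 4 libraries (Lyn11 labeled and control, for the named members, the SRP mRNAs, 3 sums and 1 ratio), 5 held a library whose gap to its nearest neighbour, as a share of the group's range, was above Dixon's critical value of 0.829. Chance gives about 1 in 20. RN7SL535P stood at 3.37 log2 FPKM in Lyn11 control replicate 2, and RN7SL481P at 3.02 in Lyn11 control replicate 4. Lyn11 labeled replicate 1 held the other 3, with RN7SL11P at -0.39, RN7SL19P at -1.69 and RN7SL182P at 0.92 log2 FPKM.

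RN7SL502P and RN7SL306P had labeling differences that differed between the CD28 and PDGFR constructs, by -6.63 and -6.09 (log2, CD28 minus PDGFR), in limma's test of that difference. That comparison was added after seeing the data, and voom called 0 genes in it.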

How the results depend on the processing

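Counts of called genes over all genes tested were 129 (Lyn11), 177 (Lck), 106 (CD28), 475 (PDGFR), 1642 (average) and 1 (inside minus outside). With a stricter filter they were 106 in Lck, 234 in PDGFR and 1049 on average. Quantile normalization gave 256 in Lyn11, 484 in Lck, 63 in CD28 and 4 in inside minus outside. With a prior count of 5 inside minus outside gave 0. Construct weights gave 1831 in Lck, 15 in CD28, 119 in PDGFR and 0 in inside minus outside. limma voom gave 227 in Lyn11, 339 in Lck, 21 in CD28, 98 in PDGFR and 0 in inside minus outside. Without both libraries that stood apart they were 256 in Lyn11, 361 in Lck and 8 in inside minus outside. Each construct alone gave 984 in Lck, 0 in CD28 and 15 in PDGFR. The cause was not tested.

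With the replicate number as a block, 60, 64, 29, 290 and 0 genes were called in Lyn11, Lck, CD28, PDGFR and inside minus outside, and 0 7SL genes in CD28. Same-numbered labeled and control libraries had deviations correlated at -0.288 to 0.166, so the numbers were not taken to pair libraries.

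Counts of called 7SL genes were 0, 0, 1, 7 and 10 in Lyn11, Lck, CD28, PDGFR and the average. In Lyn11 they were 1 without both libraries that stood apart and 2 for Lyn11 alone. In Lck they were 1 after quantile normalization, with a prior count of 5, with voom and without both libraries, 8 with construct weights and 7 for Lck alone. In CD28 they were 0 with the stricter filter, quantile normalization, construct weights, voom and CD28 alone, and 2 with a prior count of 5. In PDGFR they were 4 with the stricter filter, 2 after quantile normalization, and 1 with construct weights, voom and PDGFR alone. The average gave 6 with the stricter filter.

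Leaving out 1 library gave 71 to 179 genes in Lyn11, 74 to 244 in Lck, 42 to 464 in CD28, 334 to 727 in PDGFR, 1293 to 1781 on average and 0 to 6 in inside minus outside. For 7SL genes it gave 0 to 0, 0 to 1, 0 to 7, 2 to 11, 6 to 16 and 0 to 0 in that order, and 0 to 1 for SRP mRNAs in PDGFR. Averages that changed sign were uncalled. RN7SL648P was 0.0058 without both libraries that stood apart, SRP9 0.0294 and SRP19 0.0176 after median centring, and SRP54 -0.0130 after quantile normalization and -0.0031 without both libraries. Leaving out 1 library gave -0.1758 to -0.0017 for RN7SL648P, -0.0364 to 0.1291 for RN7SL535P, -0.0400 to 0.7475 for RN7SL381P, -0.0984 to 0.0429 for SRP9, -0.0749 to 0.0232 for SRP19, -0.0277 to 0.0538 for SRP54 and -0.0893 to 0.0002 for SRP72.

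Median centring moved the median of all genes in CD28 from 0.025 to 0.148 and the split of higher against lower calls from 39 and 67 to 55 and 51. Of the 148 genes 107 averaged under 20 reads, and the part of depth in this was not tested.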
